A study of Homo sapiens with 12 samples.

Results

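The zinc-finger genes of chromosome 19 were followed through 5 siRNA knockdowns in HEK293T cells, a transformed line of human embryonic kidney origin. The members were the protein-coding genes of chromosome 19 whose symbol begins with ZNF and whose mean level over the 12 RNA-seq libraries reached 1 CPM, the count scaled to the total on genes of its library. They numbered 222 of the 249 coding ZNF genes that the annotation places on this chromosome, among 13072 coding genes that reached the same level. The other 27 lay below it and were not tested. The last genes inside the threshold were ZNF665 (1.04 CPM) and ZNF564 (1.32 CPM), and the first outside it were ZNF709 (0.970 CPM) and ZNF20 (0.929 CPM). The level was averaged over all libraries, so that a high level in a single group was not needed to pass.

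C2H2 zinc-finger proteins bind DNA through tandem fingers, each a short fold held by a zinc ion, and most of those encoded on chromosome 19 also carry a KRAB domain. KRAB recruits TRIM28, which brings the histone methyltransferase SETDB1 and HP1 proteins, and the best known targets of this silencing are transposable elements. The genes arose by tandem duplication and lie in clusters, and their own 3′ ends are known sites of heterochromatin to which ZNF274 recruits SETDB1.

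Cells of all 6 groups were labelled as wild-type HEK293T grown in the same medium, and each group gave 2 libraries. siCTL cells received control siRNA, and the others siRNA against CARM1, an arginine methyltransferase, or against CHD4, HDAC2, GATAD2A or KDM1A, which the study took as representative subunits of the NuRD chromatin remodeling complex. In NuRD, CHD4 is the nucleosome remodeler, HDAC2 a histone deacetylase and GATAD2A a structural subunit, while KDM1A removes methyl groups from histone H3. The knockdowns are transient, the control siRNA sequence and the time of harvest were not given in the sources used here, and nothing says that the 2 libraries of a group came from separate cultures. The p-values therefore measure the spread between these libraries, which may be technical.

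Each library held 19308315 to 28648657 counts on genes. The targeted gene was lower in its own knockdown by a log2 fold change of −2.38 for CARM1, −2.35 for HDAC2, −1.75 for GATAD2A, −2.59 for KDM1A and only −0.54 for CHD4, so that siCHD4 had the smallest measured loss of its target. GATAD2A was itself higher in siCHD4, by 1.09, and CHD4 was also lower in siCARM1, at −0.33. Fragments with several genomic locations, which the counts leave out, made up 5.44% to 10.6% of a library and were most frequent in siCTL replicate 1. Of the markers for HEK293T, KRT8, KRT18, VIM, NEFL and LHX1 were expressed in every library, while NEFM, PAX2 and INA had at most 0.713, 2.18 and 3.995 CPM. Of 4 markers for MCF7, another line the study used, KRT19 had 75.4 to 102 CPM and GATA3 10.2 to 17.1, and ESR1 and TFF1 at most 0.548 and 0.196. The blood list summed to at most 0.783 CPM. Calls of higher or lower required a fold of at least 1.2 and, from edgeR's quasi-likelihood test, a p of 0.05 or less after Benjamini-Hochberg adjustment over all 13072 genes. An exact test of 2 libraries against 2 cannot give a p below 0.333, so the calls rest on edgeR's pooled estimate of the spread.

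The members varied in structure. A KRAB A box pattern was found in the canonical protein of 186 members and not in 35, and the reading frame of ZNF274 could not be followed. The number of fingers ranged from 1 to 31 with a median of 12. The GC content of their canonical transcripts had a median of 42.4%, against 48.6% over all genes tested, and ranged from 33.2% to 70.9%. Genes can overlap in position on the same strand, and fingers repeat between paralogs. More than 20% of the exonic bases lay in an overlapping gene, or of the 75-base words in other genes, for 23 members. No more than 5% of either did for 147. Counting error from such sharing was not measured.

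In 4 of the 5 knockdowns more members were called higher than lower, and in siCHD4 fewer were. In siHDAC2, 77 members were called higher and 6 lower, with a median log2 fold change of 0.19 and 173 of 222 above 0. In siGATAD2A, 64 were higher and 10 lower (median 0.13). In siKDM1A, 55 were higher and 12 lower (median 0.11), and in siCARM1 44 were higher and 14 lower (median 0.05, or 0.08 and 0.03 without siCARM1 replicate 1 and replicate 2). In siCHD4, 36 members were higher and 55 lower, with a median of −0.08. A correction for GC content and exonic length, described further on, ended that difference, with 51 higher, 51 lower and a median of −0.0002.

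These counts are read against all genes tested, of which 10.7% were higher and 9.42% lower in siHDAC2. The shares over all genes were 15.5% higher and 18.5% lower in siGATAD2A, and 14.2% higher and 11.9% lower in siKDM1A. They were 14.5% higher and 14.8% lower in siCARM1, and 23.4% higher and 25.2% lower in siCHD4. The members' share of higher genes was 34.7% in siHDAC2, 28.8% in siGATAD2A, 24.8% in siKDM1A and 19.8% in siCARM1, in each case above the share over all genes. In these 4 knockdowns the members' share of lower genes was at most 6.31% and lay below it. In siCHD4, 24.8% of members were lower, a share near that of all genes, and 16.2% were higher, below that of all genes. The 5 comparisons share the 2 siCTL libraries, so a gene misjudged in siCTL shifts in all of them.

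**Figure D1:**
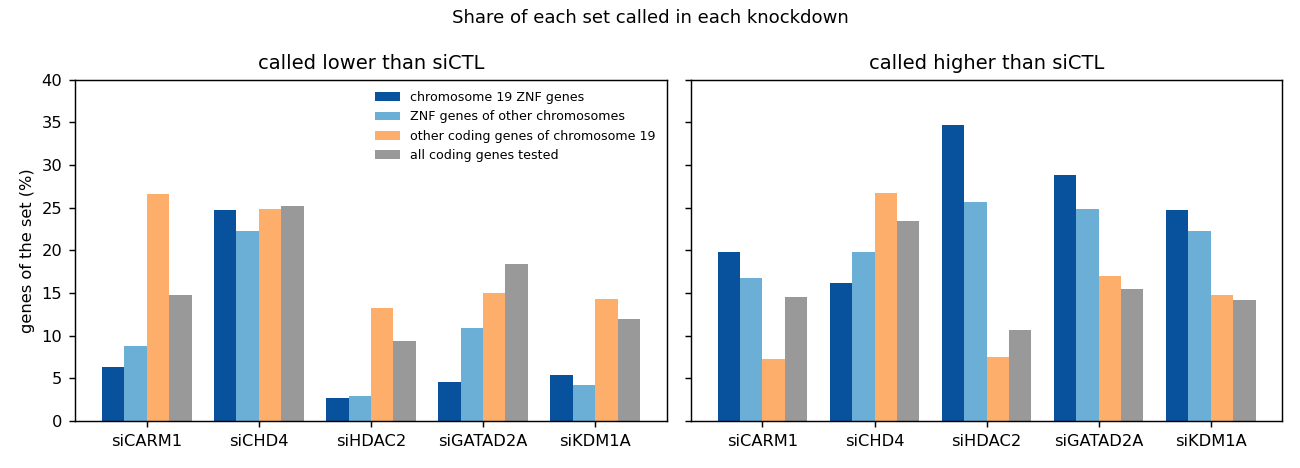
Share of genes called lower (left) or higher (right) than siCTL in each knockdown, in percent of the set, for the 222 chromosome 19 ZNF genes, 238 ZNF genes of other chromosomes, 747 other coding genes of chromosome 19 and all 13072 coding genes tested. In siHDAC2 the chromosome 19 ZNF genes stand at 34.7% higher, against 10.7% of all genes.

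Single libraries were described as well. For each library the median over the members of the log2 level relative to the siCTL mean was computed. It was 0.22 and 0.17 for the 2 siHDAC2 libraries, 0.15 and 0.15 in siGATAD2A, 0.10 and 0.17 in siKDM1A, and 0.03 and 0.09 in siCARM1. In siCHD4 it was −0.05 and −0.06, so that both libraries lay below siCTL. The 2 libraries of a group differed by up to 0.066, and the mean shifts of siCARM1 (0.06) and siCHD4 (−0.06) were within that. Over all genes tested the library medians lay between −0.01 and 0.02.

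The 2 sets nearest to the members were described in the same way, by position and by family. They were divided by symbol alone, so any zinc-finger gene whose symbol does not begin with ZNF counts among the other coding genes. Of the 747 other coding genes of chromosome 19, 7.50% were higher in siHDAC2, 17.0% in siGATAD2A, 14.7% in siKDM1A, 26.8% in siCHD4 and 7.23% in siCARM1. The shares lower were 13.3%, 15.0%, 14.3%, 24.9% and 26.6% in that order. Of the 238 ZNF genes of other chromosomes, 25.6% were higher in siHDAC2, 24.8% in siGATAD2A, 22.3% in siKDM1A, 19.7% in siCHD4 and 16.8% in siCARM1. Their medians were 0.10, 0.13, 0.10, −0.02 and 0.07 in that order. The chromosome 19 members had the higher median in siHDAC2 and the lower in siCHD4, and no test was made of the difference between these sets.

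Pairs of knockdowns were also compared directly, without siCTL, by the same fit. Between siCHD4 and siHDAC2, 114 members were lower in siCHD4 and 14 higher, with a median difference (siCHD4 minus siHDAC2) of −0.29. Over all genes 25.3% were lower and 23.3% higher in this pair, against 51.4% and 6.31% of members. In siCHD4 minus siGATAD2A, 96 members were lower and 11 higher (median difference −0.25), where all genes had 21.9% and 22.6%. In siCHD4 minus siKDM1A, 96 were lower and 17 higher (median −0.23), where all genes had 25.2% and 22.5%. In siCARM1 minus siCHD4, 75 members were higher and 20 lower (median 0.15), where all genes had 24.4% and 23.1%. In each of these 4 pairs more members were lower in siCHD4 than higher. The 238 ZNF genes of other chromosomes had the same direction in all 4. In siCHD4 minus siHDAC2, siGATAD2A and siKDM1A, 87, 78 and 78 of them were lower and 30, 27 and 33 higher. In siCARM1 minus siCHD4, 72 of them were higher and 35 lower. Their median differences were −0.15, −0.12, −0.12 and 0.09 in that order. These pairs were not corrected for GC content and length. The member medians of the remaining pairs lay between −0.12 and 0.06.

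Single members were next examined. Of the 222, 62 were called in no knockdown, 97 only higher, 51 only lower and 12 in both directions. Over all genes tested 27% were called in no knockdown, 30% only higher, 33.5% only lower and 9.43% in both directions. There were 16 members higher in all 5 knockdowns (16 of 222, where 2.33% of all genes were), namely ZNF317, ZNF426, ZNF121, ZNF492, ZNF681, ZNF585B, ZNF616, ZNF468, ZNF160, ZNF845, ZNF761, ZNF17, ZNF749, ZNF551, ZNF587B and ZNF544. Counting the 4 knockdowns other than siCHD4, 29 members were higher in all of them (13.1%, where 3.27% of all genes were), ZNF91, which silences SVA and LINE-1 retrotransposons, among them. With each library left out in turn the number higher in all 5 was 13 to 16, and without siCTL replicate 1 or siHDAC2 replicate 2 ZNF845 was uncalled in siHDAC2 (0.26 and 0.25). The promoters of 4 of the members higher in all 5 are shown, chosen because they hold a motif described further on. Those of 4 others (ZNF317, ZNF121, ZNF761 and ZNF17) lack it, and 46.5% of the matched member promoters hold it. A link between the motif and the rise was not tested. The promoter of ZNF428 is given beside the 4 promoters chosen, since that gene was lower. They are the 300 bases from 250 before to 50 after the start of the RefSeq gene on GRCh38.p14, on the strand of the gene, with capitals for CCGGAAG or its reverse complement, the core letters of ETS factor motifs.
ZNF616 (chr19:52139889-52140188, minus strand): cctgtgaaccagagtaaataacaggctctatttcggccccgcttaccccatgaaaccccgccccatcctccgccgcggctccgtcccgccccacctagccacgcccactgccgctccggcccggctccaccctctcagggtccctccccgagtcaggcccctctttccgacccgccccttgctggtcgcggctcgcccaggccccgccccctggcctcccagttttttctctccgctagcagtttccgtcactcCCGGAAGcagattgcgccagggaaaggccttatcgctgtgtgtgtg
ZNF681 (chr19:23758842-23759141, minus strand): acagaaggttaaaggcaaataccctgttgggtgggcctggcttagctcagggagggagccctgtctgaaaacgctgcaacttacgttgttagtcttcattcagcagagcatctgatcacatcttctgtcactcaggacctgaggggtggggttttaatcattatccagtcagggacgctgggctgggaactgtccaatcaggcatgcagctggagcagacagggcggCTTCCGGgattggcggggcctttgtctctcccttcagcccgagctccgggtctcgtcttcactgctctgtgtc
ZNF585B (chr19:37210487-37210786, minus strand): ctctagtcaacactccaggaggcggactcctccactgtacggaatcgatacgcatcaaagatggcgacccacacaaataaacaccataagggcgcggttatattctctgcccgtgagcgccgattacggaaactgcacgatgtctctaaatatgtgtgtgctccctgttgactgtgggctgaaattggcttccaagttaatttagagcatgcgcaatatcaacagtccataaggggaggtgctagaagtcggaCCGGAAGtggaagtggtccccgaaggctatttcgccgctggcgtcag
ZNF544 (chr19:58228664-58228963, plus strand): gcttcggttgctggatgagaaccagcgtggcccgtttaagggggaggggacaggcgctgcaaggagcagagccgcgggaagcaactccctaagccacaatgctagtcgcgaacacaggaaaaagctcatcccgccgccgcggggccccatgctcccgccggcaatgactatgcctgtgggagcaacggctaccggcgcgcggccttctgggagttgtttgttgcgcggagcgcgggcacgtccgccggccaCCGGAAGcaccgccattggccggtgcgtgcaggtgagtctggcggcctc
ZNF428 (chr19:43619580-43619879, minus strand, no match): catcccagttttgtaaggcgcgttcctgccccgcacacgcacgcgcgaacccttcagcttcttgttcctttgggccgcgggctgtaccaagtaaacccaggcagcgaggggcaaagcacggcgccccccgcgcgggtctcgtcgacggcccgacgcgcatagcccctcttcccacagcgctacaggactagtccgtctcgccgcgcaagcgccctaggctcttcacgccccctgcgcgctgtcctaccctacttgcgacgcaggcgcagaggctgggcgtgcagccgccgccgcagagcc

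ZNF616 (ENSG00000204611.7, GRCh37 chromosome 19, 52616344 to 52643191, minus strand) had the largest rise of any member in siCARM1, siHDAC2 and siKDM1A. It encodes a KRAB pattern and 21 fingers, and only 0.0701% of its 75-base words occur in another gene. Its level was 12.8 and 12.9 CPM in siCTL, 24.8 and 25.4 in siCARM1, 20.9 and 17.9 in siCHD4, 25.4 and 26.2 in siHDAC2, 24.9 and 24.6 in siGATAD2A, and 23.5 and 28.6 in siKDM1A. All 10 knockdown libraries lay above both siCTL libraries. The log2 fold changes were 0.96, 0.63, 1.01, 0.94 and 1.02 in siCARM1, siCHD4, siHDAC2, siGATAD2A and siKDM1A, with standard errors of 0.0974 to 0.101 and the highest adjusted p (edgeR) at 2.4e-06 in siCHD4.

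ZNF544 (ENSG00000198131.14, 58739960 to 58788861, plus strand) had the largest rise of any member in siCHD4. It had 6.78 and 6.11 CPM in siCTL and 13.4 and 13.9 in siCHD4, a log2 fold change of 1.12 (standard error 0.122, edgeR adjusted p = 1.9e-09). In the other 4 knockdowns its 8 libraries held 9.55 to 12.1 CPM, and the fold changes were 0.74, 0.83, 0.81 and 0.64. Both siCHD4 libraries were above the other knockdowns and all 10 were above siCTL. In this gene 10.8% of the 75-base words are shared with others.

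ZNF681 (ENSG00000196172.9, 23921997 to 23941693, minus strand) had 8.39 and 8.71 CPM in siCTL, 13.2 and 15.3 in siCARM1, 10.2 and 10.0 in siCHD4, 15.8 and 15.7 in siHDAC2, 14.7 and 14.4 in siGATAD2A, and 14.2 and 17.0 in siKDM1A. Its fold changes were 0.72, 0.28, 0.88, 0.76 and 0.86, and that of siCHD4 was the weakest of the 5. The siCHD4 call (edgeR adjusted p = 0.042) was lost when any of siCTL replicate 1 (0.26), siCTL replicate 2 (0.32), siCHD4 replicate 1 (0.26) or siCHD4 replicate 2 (0.29) was left out, and with DESeq2 (0.29).

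The other members higher in all 5 that the naming rule selects had changes of similar size. ZNF121 was also the member with the highest mean level per length, at 30.1 FPKM (CPM divided by the exonic length in kilobases). Its log2 fold changes were 0.40, 0.63, 0.48, 0.52 and 0.53, from 157 and 164 CPM in siCTL to 203 to 252 in the knockdowns. ZNF317 rose by 0.45, 0.63, 0.40, 0.58 and 0.50, ZNF761 by 0.45, 0.55, 0.62, 0.48 and 0.57, and ZNF585B by 0.48, 0.41, 0.60, 0.56 and 0.44. ZNF17 rose by 0.73, 0.56, 0.53, 0.63 and 0.60. In each of these 5 genes no library of a knockdown overlapped siCTL. Words of 75 bases shared with other genes were 14.6% in ZNF585B, largely with its neighbour ZNF585A, and 15.8% in ZNF17, and at most 3.45% in the other 3.

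**Figure D2:**
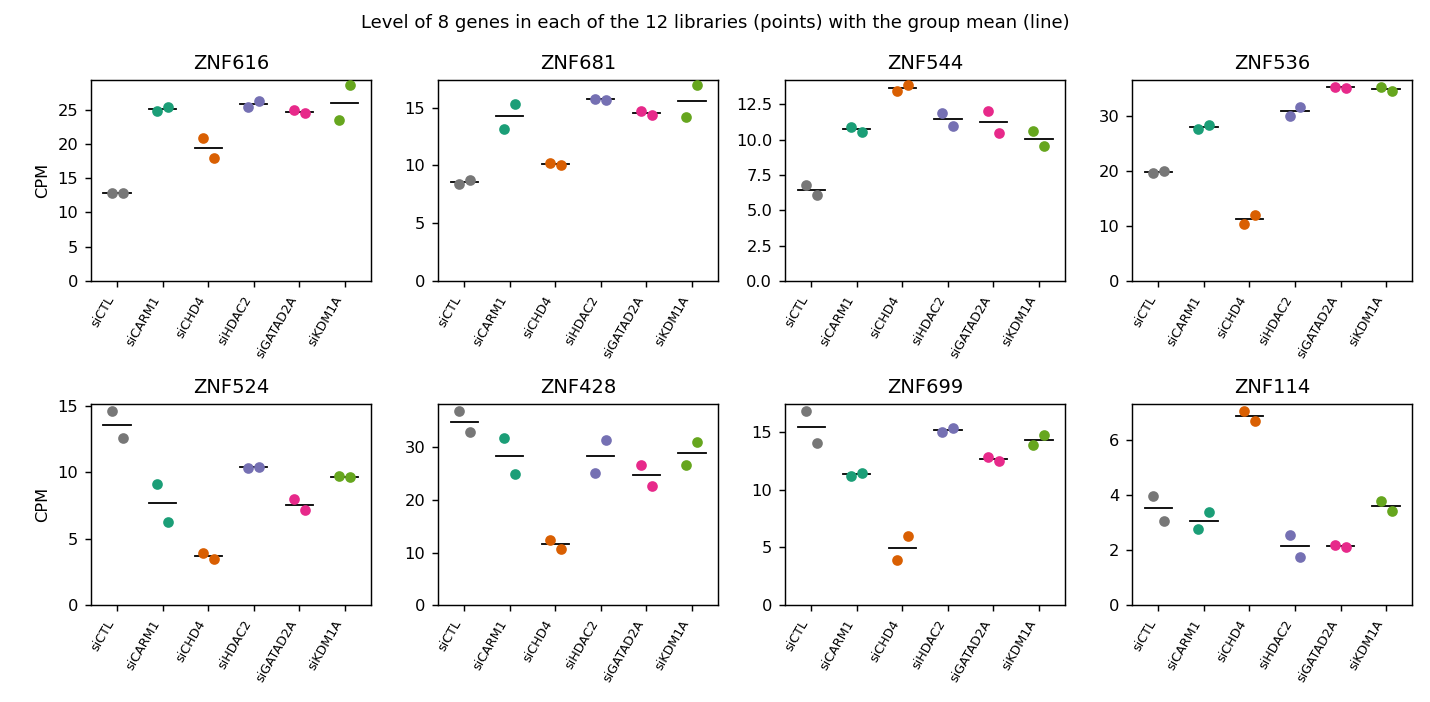
Level in CPM of 8 members in each of the 12 libraries (points) with the group mean (line); every axis begins at 0. ZNF616, ZNF681 and ZNF544 lie above siCTL in every knockdown library, ZNF524 below it, and ZNF536, ZNF699 and ZNF114 show the libraries of siCHD4 apart from the rest.

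Lower members were fewer outside siCHD4. A KRAB pattern was found in 9 of the 14 lower in siCARM1 and 7 of the 10 lower in siGATAD2A. In siHDAC2 and siKDM1A it was found in 2 of 6 and 5 of 12. The only members lower in all 5 knockdowns were ZNF524 and ZNF428 (2 of 222, where 1.73% of all genes were). Neither has a KRAB pattern, they encode 4 and 1 fingers, and the GC content of their canonical transcripts is 69.1% and 60.2%. ZNF524 (ENSG00000171443.7, 56111388 to 56114504, plus strand), known to bind telomeric repeats, had 14.6 and 12.5 CPM in siCTL, 9.10 and 6.26 in siCARM1, 3.94 and 3.45 in siCHD4, 10.3 and 10.4 in siHDAC2, 7.94 and 7.14 in siGATAD2A, and 9.67 and 9.63 in siKDM1A. No knockdown library reached siCTL. Its fold changes were −0.80, −1.83, −0.38, −0.84 and −0.49, and the siCHD4 value was the lowest of any member (standard error 0.154, edgeR adjusted p = 7.8e-12). ZNF428 (ENSG00000131116.12, 44111376 to 44123781, minus strand) had 36.9 and 32.8 CPM in siCTL and 12.4 and 10.7 in siCHD4, a change of −1.55. In siGATAD2A it fell by 0.50. Its values of −0.30 in siCARM1, −0.29 in siHDAC2 and −0.27 in siKDM1A were small, and in ZNF428 12.3% of the 75-base words are shared with SRRM5.

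The call in all 5 knockdowns depended on single libraries and on the correction for GC content and length. Without siCTL replicate 1, ZNF524 was no longer called in siHDAC2 (−0.27) or siKDM1A (−0.38), and ZNF428 not in siCARM1 (−0.21), siHDAC2 (−0.20) or siKDM1A (−0.19). ZNF428 also lost its call without siCARM1 replicate 2 in siCARM1 (−0.13), without siHDAC2 replicate 1 in siHDAC2 (−0.14) and without siKDM1A replicate 1 in siKDM1A (−0.17). ZNF524 lost its call in siHDAC2 without siHDAC2 replicate 1 (−0.37) or replicate 2 (−0.39). After correction for GC content and length, ZNF524 stood at −0.14 in siHDAC2 and −0.27 in siKDM1A, both uncalled. The siCHD4 and siGATAD2A calls of both genes were kept in each of these settings, as was that of ZNF524 in siCARM1. The GC-corrected values of ZNF428 were −0.14, −0.14 and −0.15 in siCARM1, siHDAC2 and siKDM1A, all uncalled.

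The 55 members lower in siCHD4 formed the largest group of losses, but their share (24.8%) was near that of all genes (25.2%). Of these 55, 37 were lower in no other knockdown (16.7%, where 10.7% of all genes were). At most 6.31% of members were lower in any other knockdown, below the shares over all genes. That scarcity by itself raises the share lower only in siCHD4. ZNF699 (ENSG00000196110.8, 9401816 to 9420514, minus strand), mutated in a recessive syndrome with developmental delay, had 16.8 and 14.1 CPM in siCTL, 3.94 and 5.95 in siCHD4, and 11.2 to 15.3 in the other knockdowns. Its siCHD4 change was −1.59 (standard error 0.136, edgeR adjusted p = 1.1e-11), and the siCHD4 libraries did not overlap any other group. ZNF491 changed by −1.33, ZNF837 by −1.28, ZNF571 by −1.24 and ZNF285 by −1.23 in siCHD4. Both ZNF571 and ZNF285 were also lower in siGATAD2A (both −0.57) and siKDM1A (−0.45 and −0.53), where without siCTL replicate 2 the values were −0.38 for ZNF571 in siKDM1A and −0.43 and −0.39 for ZNF285 in siGATAD2A and siKDM1A, all uncalled. ZNF285 was also uncalled in siGATAD2A without siGATAD2A replicate 2 (−0.32) and in siKDM1A without siKDM1A replicate 2 (−0.41).

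Of the members higher in siCHD4, ZNF850 (ENSG00000267041.6, 37205285 to 37263727, minus strand), with 29 fingers, had 50.7 and 47.1 CPM in siCTL, 84.2 and 90.0 in siCHD4, and 48.5 to 56.6 in the other knockdowns. Its change was 0.87 in siCHD4 (standard error 0.0643, edgeR adjusted p = 3.8e-13) and 0.07 to 0.18 elsewhere, none of them called. ZNF257 changed by 1.0 in siCHD4 but from only 0.932 and 0.997 CPM in siCTL. ZNF671 changed by 0.89, a call lost without siCHD4 replicate 2 (0.76).

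Of the members with large changes in siHDAC2, ZNF578 had 8.96 and 10.4 CPM in siCTL, 18.6 and 17.7 in siHDAC2 (0.90), 15.9 and 15.4 in siCHD4 (0.72) and 8.94 and 10.3 in siGATAD2A (−0.02, not called). ZNF730 had 5.85 and 5.94 CPM in siCTL and 11.8 and 10.6 in siHDAC2 (0.92, edgeR adjusted p = 2.9e-06), while siCHD4 gave 5.03 and 5.05 (−0.19, not called). In both, the siHDAC2 libraries were above every other library, and 15.5% of the 75-base words of ZNF578 are shared with other genes.

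Members with known roles were taken from a hand-written list. ZNF274, which recruits SETDB1 to zinc-finger genes, had 38.3 and 38.4 CPM in siCTL and 50.4 to 55.3 in the libraries of siHDAC2, siGATAD2A and siKDM1A, with changes of 0.48, 0.52 and 0.41. In siCARM1 and siCHD4 it stood at −0.05 and 0.06, uncalled, with libraries between 36.8 and 39.2 CPM. ZNF91 had 29.4 and 25.3 CPM in siCTL and was higher in siCARM1 (0.39), siHDAC2 (0.64), siGATAD2A (0.60) and siKDM1A (0.54), with 0.09 in siCHD4, uncalled. ZNF417 and ZNF587, a pair of paralogs that repress endogenous retroviruses, were both higher in siHDAC2 (0.38 and 0.33) and siGATAD2A (0.37 and 0.46). In siCHD4 ZNF587 was higher (0.42) and ZNF417 was at −0.22, uncalled, and since they share 29.3% and 18.6% of their 75-base words, each most with the other, their separate values are uncertain.

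ZNF808, a repressor of MER11 elements needed for pancreas development, was higher in siHDAC2 (0.36) and lay between −0.11 and 0.19, uncalled, in the other knockdowns. ZNF382 was higher in siHDAC2 (0.35) and siKDM1A (0.28) and lower in siCHD4 (−0.63), and the siKDM1A call was lost without siCTL replicate 1 (0.26). ZNF331, an imprinted gene, was higher in siCHD4 (0.27), a call lost without siCHD4 replicate 2 (0.24). ZNF675, an inhibitor of TRAF6 signalling, changed by 0.29, 0.46, 0.39 and 0.56 in siCARM1, siHDAC2, siGATAD2A and siKDM1A, of which all but the last lost the call without siCTL replicate 2 (0.21, 0.38 and 0.30). The siCARM1 call of ZNF675 was also lost without siCARM1 replicate 2 (0.18) and its siGATAD2A call without siGATAD2A replicate 1 (0.32). ZNF146, which consists almost wholly of fingers, was higher in siCARM1 (0.30), a call lost without siCTL replicate 2 (0.26). ZNF224, ZNF649 and ZNF264 were called in no knockdown, and their changes lay between −0.23 and 0.25. ZNF93, a silencer of LINE-1, was under the threshold at 0.115 CPM.

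The 5 members with the highest mean level per length were ZNF121, ZNF146 (24.6 FPKM), ZNF460 (21.1 FPKM), ZNF581 (20.7 FPKM) and ZNF428 (16.8 FPKM). ZNF460 was higher in siGATAD2A (0.42) and was called in no other knockdown. ZNF581 was higher in siCHD4 (0.31) and siGATAD2A (0.36), and its neighbour ZNF580, with which it shares exonic bases, was at 0.15 and −0.12 there, uncalled. ZNF580 was lower in siCARM1 (−0.42), siHDAC2 (−0.42) and siKDM1A (−0.71), but its siCTL libraries held 26.2 and 16.3 CPM, and without siCTL replicate 1 the values were −0.05, −0.05 and −0.34, all uncalled. It was also uncalled in siCARM1 without siCARM1 replicate 2 (−0.22) and in siHDAC2 without siHDAC2 replicate 1 (−0.36).

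Position along the chromosome was examined with clusters, in which the starts of neighbouring coding ZNF genes lay at most 1 Mb apart. There were 16, of which 7 held at least 10 members and 203 members in all. Their positions are on GRCh37. In siHDAC2, the clusters from ZNF101 to ZNF254 (19.8 to 24.3 Mb, 28 members) and from ZNF175 to ZNF331 (52.1 to 54.1 Mb, 37 members) had medians of 0.35 and 0.36. In them 18 and 22 members were higher (64.3% and 59.5%, where 10.7% of all genes were) and 0 lower. The other 5 large clusters had siHDAC2 medians of 0.09 to 0.17.

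In single libraries the median of the ZNF101 to ZNF254 cluster was 0.43 and 0.33 in siHDAC2, and that of the ZNF175 to ZNF331 cluster was 0.43 and 0.36. The libraries of the other 5 clusters lay between 0.08 and 0.21 in siHDAC2, so that they did not overlap. Leaving out each library in turn kept the 2 medians between 0.33 and 0.43. The same 2 clusters also had the highest medians in siKDM1A (0.23 and 0.24), siGATAD2A (0.29 and 0.19) and siCARM1 (0.18 and 0.15). In siCARM1 the median of the ZNF101 to ZNF254 cluster was 0.28 without siCARM1 replicate 1 and 0.15 without replicate 2. In siGATAD2A without siCTL replicate 1, the cluster from ZNF628 to ZNF446 (0.21) stood above that from ZNF175 to ZNF331 (0.17). The 5 comparisons share siCTL, so these are not separate observations of the order.

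The clusters from ZNF565 to ZNF573 (36.7 to 38.3 Mb, 26 members) and from ZNF576 to ZNF296 (44 to 45.6 Mb, 23 members) had siCHD4 medians of −0.23 and −0.19, which were −0.15 and −0.08 after correction for GC content and length. Their libraries stood at −0.24 and −0.24 and at −0.23 and −0.16. In the first, 11 members were lower and 3 higher (42.3% and 11.5%), and in the second 8 were lower and 2 higher (34.8% and 8.70%). Over all genes tested 25.2% were lower and 23.4% higher in siCHD4. The cluster from ZNF653 to ZNF791 (11.6 to 12.8 Mb, 19 members) had a siCHD4 median of −0.18 (−0.11 after the correction) with 6 lower and 0 higher, and few calls elsewhere, 0 to 1 higher in each knockdown. The distal cluster from ZNF628 to ZNF446 (56.0 to 59.0 Mb, 57 members) had 23 members higher and 3 lower in siGATAD2A. These were 40.4% and 5.26%, where all genes had 15.5% and 18.5%. Its siCHD4 median was 0.04, which was −0.02 without siCTL replicate 2 and 0.02 and 0.01 without siCTL replicate 1 and siCHD4 replicate 2.

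**Figure D3:**
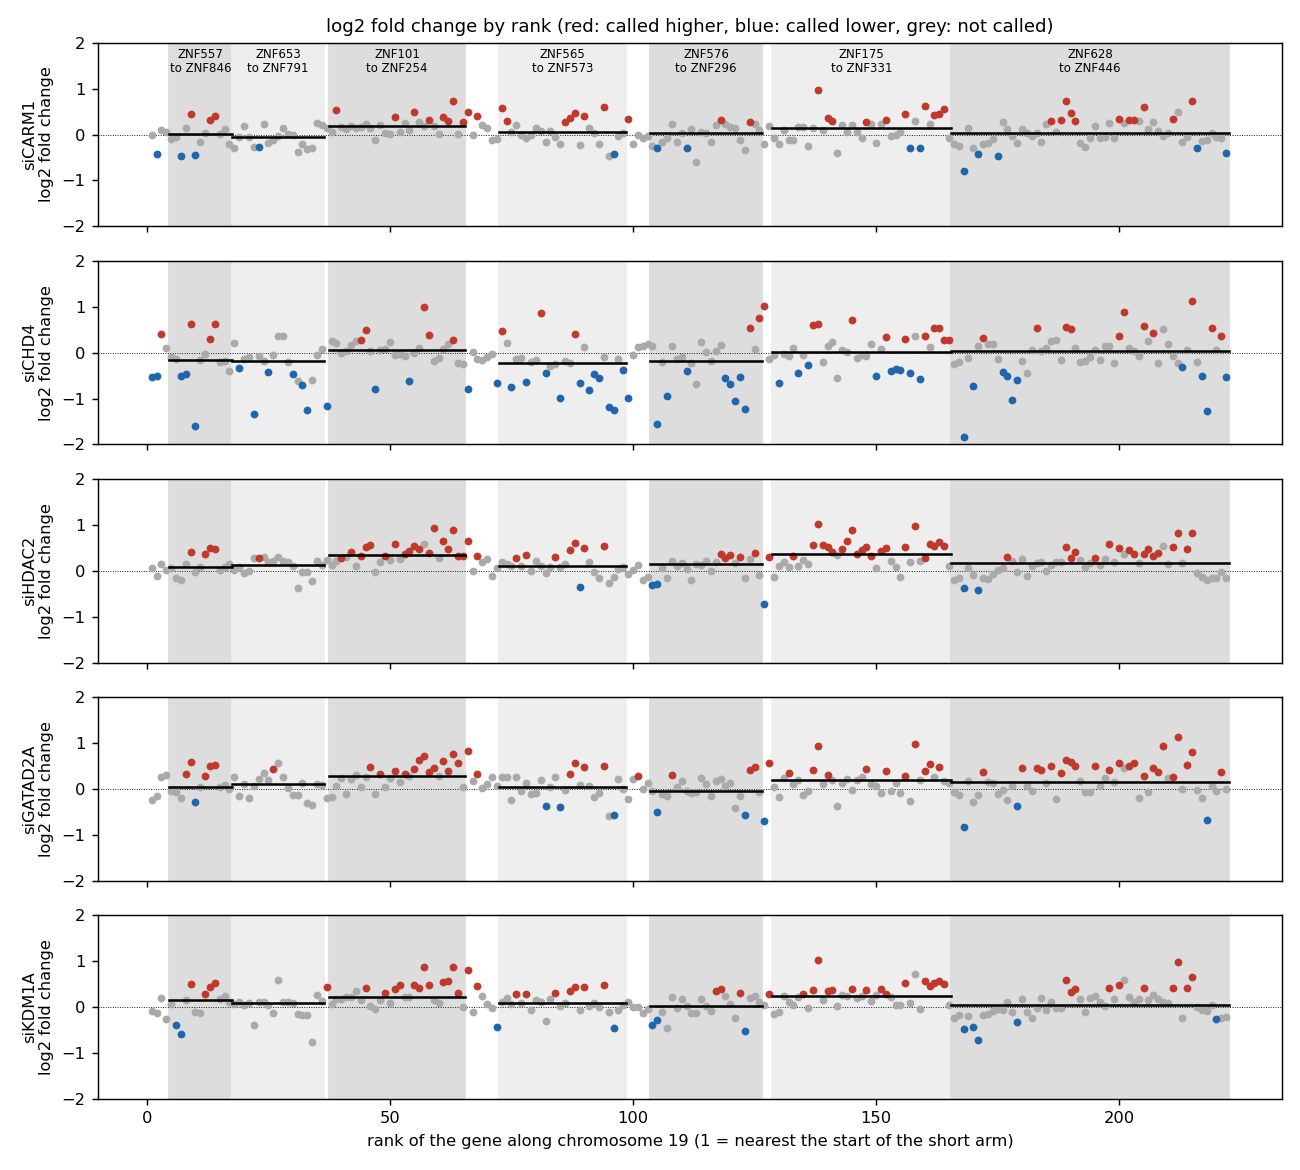
log2 fold change of each of the 222 members in each knockdown, by rank along chromosome 19 (red, called higher; blue, called lower; grey, not called). Shading marks the 7 clusters with at least 10 members and black lines their medians, of which the highest are 0.35 and 0.36 in siHDAC2.

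Coding genes with other symbols that lie among the members had the same direction as the members in some clusters and not in others. These genes were set apart by symbol alone. Any zinc-finger gene whose symbol does not begin with ZNF counts among them, so they are not a set of unrelated neighbours. Among the 29 tested within the ZNF557 to ZNF846 cluster (7.1 to 9.9 Mb), 3 were higher and 1 lower in siHDAC2, with a median of −0.10 against 0.09 for the 13 members. Among the 18 within the ZNF576 to ZNF296 cluster the siCHD4 median was 0.19, with 8 higher and 5 lower, against −0.19 for the members (−0.08 after the correction). Within the ZNF565 to ZNF573 cluster all 3 others were lower in siCHD4, with a median of −0.40 against −0.23 for the members. In the distal cluster the 19 others had a siHDAC2 median of 0.19, close to the 0.17 of the members. No other gene was tested within the ZNF101 to ZNF254 cluster, and only 3 within the ZNF175 to ZNF331 cluster, whose medians were −0.07 in siHDAC2 and 0.28 in siGATAD2A, against 0.36 and 0.19 for the members.

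Adjacent members of a cluster were also compared, and their values were related most in siHDAC2 and siKDM1A. Over 206 pairs of adjacent members, Pearson's r of their log2 fold changes was 0.44 for siHDAC2 and 0.35 for siKDM1A. It was 0.21 for siGATAD2A and 0.17 for both siCARM1 and siCHD4. These are descriptions across genes of the same libraries, which share base composition and, for some paralogs, sequence. The pairs were pooled over clusters without removing the cluster medians, so r includes the differences between clusters given above. Members of a cluster that are not adjacent were not compared. The extreme members were not always neighbours of others like them, as ZNF850, at 0.87 in siCHD4, lies in the ZNF565 to ZNF573 cluster, with a siCHD4 median of −0.23.

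The siCHD4 values changed with a correction for GC content and length. In each library a smooth curve on GC content and exonic length was fitted to the log2 levels relative to each gene's mean. It ran over all genes tested and entered a new edgeR fit as an offset. The member median in siCHD4 then moved from −0.08 to −0.0002, and the counts from 36 higher and 55 lower to 51 and 51. In the other knockdowns the corrected medians were 0.18 in siHDAC2, 0.14 in siGATAD2A, 0.10 in siKDM1A and 0.04 in siCARM1, with 71, 70, 53 and 39 members higher. By cluster, the siCHD4 median of ZNF101 to ZNF254, whose members had the lowest median GC content (36.7%), went from 0.06 to 0.23, and in siGATAD2A it went from 0.29 to 0.35. The siGATAD2A medians of the ZNF576 to ZNF296 and ZNF628 to ZNF446 clusters went from −0.04 to 0.05 and from 0.15 to 0.20. The siHDAC2 medians of the ZNF101 to ZNF254 and ZNF175 to ZNF331 clusters were 0.33 and 0.36 after correction. The parts of GC content and of length were not tested separately.

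**Figure D4:**
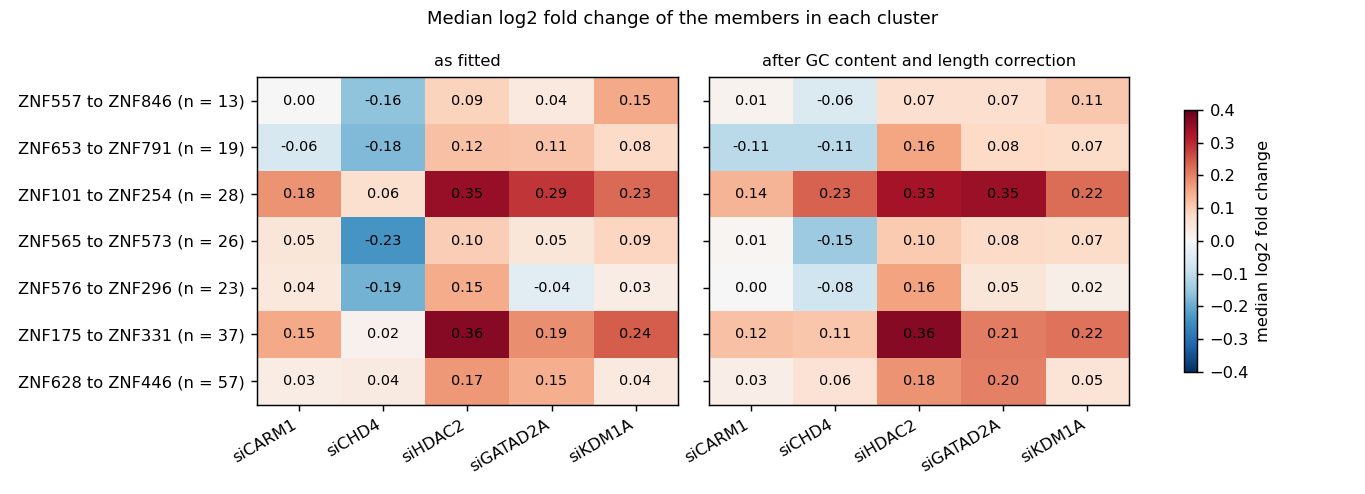
Median log2 fold change of the members in each of the 7 large clusters (rows, from the short arm down) and knockdowns (columns), as fitted and after correction for GC content and length, on a color scale from −0.4 to 0.4. The ZNF101 to ZNF254 and ZNF175 to ZNF331 clusters are highest in siHDAC2 in both, and the siCHD4 median of the former goes from 0.06 to 0.23 with the correction.

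The members were also divided by GC content and by the KRAB pattern, as a description. The 191 members with at most 50% GC had medians of 0.21 in siHDAC2, 0.17 in siGATAD2A, 0.15 in siKDM1A, 0.10 in siCARM1 and −0.08 in siCHD4. In the same order, the 31 above 50% had −0.14, −0.00, −0.15, −0.09 and −0.11. Members without a KRAB pattern fell into both classes. The 13 with low GC content had medians of 0.29 in siHDAC2 and 0.28 in siKDM1A, and the 22 with high GC content −0.16 and −0.18. Only 8 members had both a KRAB pattern and high GC content. Their medians were 0.07 in siHDAC2, 0.22 in siGATAD2A, −0.03 in siKDM1A, 0.01 in siCARM1 and 0.09 in siCHD4. The 22 had −0.06 in siGATAD2A, −0.20 in siCARM1 and −0.17 in siCHD4. GC content and the KRAB pattern were not tested apart from each other. Members with more than 12 fingers had 42 of 109 higher and 0 lower in siHDAC2, against 34 and 6 of the 112 with 12 or fewer. Over all genes 10.7% were higher and 9.42% lower in siHDAC2. The siHDAC2 medians of the 2 finger classes were 0.21 and 0.18. Their shares higher were 30.3% and 26.8% in siGATAD2A, 25.7% and 23.2% in siKDM1A, 22.0% and 17.9% in siCARM1, and 16.5% and 16.1% in siCHD4. The median finger number was 13 at 50% GC or less and 8 above it, so finger number went with GC content.

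Restricting the members to the 147 with little shared sequence gave medians of 0.20 in siHDAC2, 0.12 in siGATAD2A, 0.11 in siKDM1A, 0.10 in siCARM1 and −0.08 in siCHD4. The siCARM1 median moved, as it was 0.05 over all 222 members. Of these 147, 53 were higher and 3 lower in siHDAC2, and 22 higher and 40 lower in siCHD4.

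Promoters of 198 members were matched by symbol in the RefSeq table. CCGGAAG, on either strand, occurred in 92 of them (46.5%), against 18.8% of the 10603 promoters of genes tested and 10.7% of all 27305 promoters of the same length. It was chosen after the fold changes had been seen, as 1 of 8 motifs counted on both strands. The CCAAT box (CCAAT) occurred in 52.0% of member promoters against 36.8% of those tested, and the GC box (GGGCGG) in 66.2% against 71.1%. TATAAA was in 2.02% against 5.56%. The remaining 4 motifs (TGACGTCA, TGACGCA, GCCATNTTG and CTCGCGAG) were each in 1.01% to 5.56% of member promoters. None of these motifs is a part of CCGGAAG, though windows can hold several of them.

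Members with CCGGAAG had higher medians than those without it in each knockdown, and so did members with CCAAT, GCCATNTTG or TATAAA, so that this was not particular to CCGGAAG. With and without it, the medians were 0.28 and 0.11 in siHDAC2, 0.24 and 0.10 in siGATAD2A, 0.16 and 0.09 in siKDM1A, 0.14 and 0.03 in siCARM1, and 0.05 and −0.14 in siCHD4. For CCAAT they were 0.22 and 0.13 in siHDAC2 and 0.04 and −0.15 in siCHD4. In siHDAC2 they were 0.44 and 0.19 for GCCATNTTG, found in 11 members, and 0.45 and 0.19 for TATAAA, found in 4. For CCGGAAG in siHDAC2, 44 of 92 were higher with the motif and 27 of 106 without. Over all genes tested the medians with and without CCGGAAG differed by little, −0.01 and −0.01 in siHDAC2 and 0.01 and −0.01 in siCHD4. Of the promoters shown, those of ZNF616, ZNF681, ZNF585B and ZNF544 hold the motif, while 4 other members higher in all 5 knockdowns (ZNF317, ZNF121, ZNF761 and ZNF17) and ZNF428 do not. A match is only a run of letters, and binding was not measured here.

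The cofactors of the KRAB pathway were examined with a list of 24 genes, all of which were tested. In siCARM1, siCHD4, siHDAC2, siGATAD2A and siKDM1A, 2, 4, 4, 3 and 2 were higher and 2, 6, 1, 3 and 2 lower, with medians between −0.01 and 0.05. The 6 of 24 lower in siCHD4 compare with 25.2% of all genes, and the 4 of 24 higher in siHDAC2 with 10.7%. No test of the list was made. TRIM28, the corepressor that KRAB binds, had 865 and 904 CPM in siCTL and changes of −0.06, 0.04, −0.08, −0.08 and −0.19, none of them called. SETDB1 changed by −0.14 to 0.21, also uncalled. TASOR, a subunit of the HUSH silencing complex, was higher in siCARM1 (0.44), siHDAC2 (0.39), siGATAD2A (0.33) and siKDM1A (0.35) and at 0.13, uncalled, in siCHD4. CBX3, an HP1 protein, was lower in siCHD4 (−0.48), siHDAC2 (−0.28), siGATAD2A (−0.27) and siKDM1A (−0.46), of which the siHDAC2 call was lost without siHDAC2 replicate 2 (−0.25) and the siGATAD2A call without siCTL replicate 1 (−0.26), and both after correction for GC content and length (−0.25 and −0.20). Other HP1 genes on the list differed from CBX3. CBX1 was higher in siGATAD2A (0.33) and called in no other knockdown. CBX5 was lower in siGATAD2A (−0.51) and siCHD4 (−0.29, uncalled at −0.23 after the correction), and at 0.17, uncalled, in siKDM1A. SUV39H1, a histone H3 methyltransferase, was lower in siCARM1 (−0.47) and siCHD4 (−0.62). Its paralog SUV39H2 was higher in siCHD4 (0.40) and called in no other knockdown.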

How the data were processed

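RNA-seq was examined in 12 libraries of HEK293T cells, grouped by their titles into siCTL and 5 knockdowns with 2 libraries each. The values deposited by the authors are raw counts on Ensembl genes, in 3 columns (unstranded, forward and reverse) as STAR writes them. The submitters' processing notes name STAR 2.7.10, CASAVA 1.4 and hg19. The paper's methods name other tools (TopHat, HOMER and DESeq2) for its own figures. The annotation behind the counts was not given in the sources used here.

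The reverse column was used, since the library kit is directional. Of 60660 identifiers, 58662 (96.7%) were found in GENCODE 44 as mapped to GRCh37. The rest, with 1.75% to 2.61% of a library's counts, were not used. Coding genes with a mean of at least 1 CPM were tested, 13072 in all, a filter that includes every member. Each knockdown was compared with siCTL by the quasi-likelihood test of edgeR 4.0.16 with TMM factors (0.967 to 1.01) and 6 group means over all 12 libraries. The common biological coefficient of variation was 3.47%. The standard error of a log2 fold change was taken as its size divided by the square root of the F statistic. Replicates differed by more than sampling noise, the chi-square divided by its degrees of freedom being 1.77 to 4.90, and none was counted as a duplicate. Values of single counts carry counting error besides.

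The members and gene lists were chosen with earlier results of these data known. Genes are named if they are among the 5 largest changes per knockdown and direction with both libraries beyond both siCTL libraries, called alike in all 5, called in opposite directions, highest in FPKM, at the CPM threshold, or on a list of members with known roles. The cofactor list and the marker list were written by hand. Only some of the genes so selected are described in full. KRAB and finger patterns were searched in translations of the annotated coding sequence, because no protein table was used here. Promoters are from RefSeq (GRCh38.p14), a different build from the gene coordinates.

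Alternatives were DESeq2 1.42.0, RLE size factors, the replicate number as a block, fits of 2 groups at a time, the unstranded column, FPKM larger than 0.5 in at least 1 group (the study's filter), coding genes with at least 1 count, no fold minimum, members with at least 5 CPM, a loess correction for GC content and length (span 0.3), cluster gaps of 0.5 and 2 Mb, and each library left out in turn. The restriction to members with little shared sequence was added after seeing the data. The test was checked on simulated data for 5 comparisons over 13072 genes, in which 33 to 37 of 50 genes changed by 1.3-fold and 44 to 46 of 50 changed by 1.5-fold were recovered per comparison.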

Additional observations from a re-analysis of the deposited data

Results flagged for a closer look

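Of the 222 members, 12 were higher in 1 knockdown and lower in another, and the difference between those 2 knockdowns was tested in the same fit (edgeR). They were picked from the calls, so that a difference was fixed by the choice, and each value below is the log2 difference between the highest and the lowest of the called knockdowns.

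ZNF114 was higher in siCHD4 and lower in siHDAC2, a difference of 1.74 (standard error 0.193), on levels of 1.75 to 7.06 CPM. It was also lower in siGATAD2A. Without siCTL replicate 1 it was uncalled in siHDAC2 (−0.54) and siGATAD2A (−0.51), and without siHDAC2 replicate 2 in siHDAC2 (−0.45). ZNF536, a repressor of neuronal differentiation genes, was higher in siCARM1, siHDAC2, siGATAD2A and siKDM1A and lower in siCHD4. It had 19.7 and 19.9 CPM in siCTL, 10.4 and 12 in siCHD4 and 27.7 to 35.4 in the other knockdowns, and siGATAD2A differed from siCHD4 by 1.62 (standard error 0.0822). ZNF333 had 15.3 and 15.7 CPM in siCTL, 6.98 and 6.46 in siCHD4 and 21.7 and 20.3 in siKDM1A, a difference of 1.60 between the latter 2. ZNF546 differed by 1.32 between siCARM1 and siCHD4, and its siCARM1 call was lost without siCARM1 replicate 2 (0.24) or siCTL replicate 2 (0.26).

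The next 6 genes were higher in siHDAC2 and lower in siCHD4. The differences were 1.04 in ZNF429, 1.02 in ZNF235, 0.98 in ZNF382, 0.84 in ZNF112, 0.83 in ZNF227 and 0.80 in ZNF667. The siHDAC2 call of ZNF429 was lost without siCTL replicate 1 (0.40), siCTL replicate 2 (0.46) or siHDAC2 replicate 1 (0.36), and that of ZNF235 without siCTL replicate 2 (0.24), siHDAC2 replicate 1 (0.24) or either siGATAD2A library (0.35). ZNF558 was higher in siGATAD2A and lower in siCHD4, by a difference of 0.79. ZNF440 was higher in siHDAC2 and lower in siCARM1, by a difference of 0.55 with the largest adjusted p of the 12, 0.00011 (edgeR). In 11 of the 12 genes siCHD4 was one of the knockdowns compared, and in 10 of these it was the lower. It was also the knockdown with the most calls over all genes tested, 25.2% lower and 23.4% higher. How often siCHD4 took part was not counted over all genes called in both directions. Over all genes tested, 1233 (9.43%) were called in both directions, against 5.41% of members.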

How the results depend on the processing

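With 2 libraries per group, calls near the threshold were easily lost. Of 138 calls of named members over 2752 repeats in other fits, 127 were lost and 0 reversed, the most without siCTL replicate 1 (23) or replicate 2 (22) and with DESeq2 (17). For the counts and medians, 362 repeats stayed within 1.5 times or within the replicate spread of a median (0.033), and the other 26 are given here. With no fold minimum, 23 members were lower in siCARM1, in place of 14. With DESeq2, 2 were lower in siHDAC2, 7 in siKDM1A and 0 in all 5 knockdowns. Correction for GC content and length gave 3 lower in siHDAC2, 0 in all 5 and a siCHD4 median of −0.0002, and counts without regard to strand gave 1 lower in all 5. The 147 members with little shared sequence, fewer by construction, gave 9 lower and 29 higher in siCARM1 with a median of 0.10. They gave 22 higher in siCHD4, 3 lower in siHDAC2, 39 higher in siGATAD2A, 7 lower in siKDM1A, and 1 lower and 10 higher in all 5. A gap of 2 Mb in place of 1 Mb gave 9 clusters instead of 16. Leaving out each library gave 2 to 7 members lower in siHDAC2, 0 to 3 lower and 13 to 16 higher in all 5, a siCARM1 median of 0.03 to 0.08 and a siKDM1A median of 0.10 to 0.16. Replicate numbers did not pair the samples (correlations of −0.14 to 0.15), and the replicate block gave 77 higher in siHDAC2 and 55 lower in siCHD4, with a siCARM1 median of 0.05, and changed no call of a count.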
